A study of Mus musculus with 3 samples.

Results

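The 5 genes described here, Mical2, Sorbs2, Palld, Xirp1 and Flnc, encode proteins that act on actin filaments or tie them to the Z-disc and to cell contacts of muscle. They were chosen by function and by the number and fold of their peaks as already seen in the same list, and peaks were taken as theirs by position. A peak belonged to a gene when its summit, the base of highest signal, lay nearest to that gene's body among all protein-coding genes and within 100 kb of it. Of 6166 peaks in all, 26 met this rule: 8 at Mical2, 10 at Sorbs2, 8 at Palld, 0 at Xirp1 and 0 at Flnc. The list came from chromatin bound by FOG2, the product of Zfpm2, in the ventricles of E12.5 mouse hearts.

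FOG2 was pulled down from 2 libraries of Fog2flbio/flbio;Rosa26BirA/BirA mice, and 1 input library, for which the labels give no antibody, served as control. Per the protocol, all animals carried the tagged FOG2 allele and the biotin ligase BirA at the Rosa26 locus. The labels' genotype field reads WT instead, and for the pulldown their antibody field gives FOG2, whereas the protocol describes a biotin pulldown. The protocol was followed here, and the conflict was not resolved. About 20 ventricles were used for each biological replicate, and the protein was recovered on streptavidin. A pulldown without tagged FOG2 was not analysed here, so retention on the beads without FOG2 was not measured. The authors pooled the pulldown libraries before calling peaks, so no value below has a replicate spread and no test between libraries could be made.

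Actin filaments in heart muscle are anchored at Z-discs and at the intercalated discs that join neighbouring cells, and adaptor proteins hold these attachments together. MICAL2 is a flavin monooxygenase that oxidises actin, which takes filaments apart and, in the nucleus, favours transcription by SRF and its coactivators. Sorbs2 (ArgBP2) encodes an adaptor with SH3 domains found at Z-discs and stress fibres, and Palld encodes palladin, an immunoglobulin-domain scaffold that binds alpha-actinin and bundles actin. Xirp1 (Xin) encodes an actin-binding protein of the intercalated disc, and Flnc encodes filamin C, the muscle cross-linker of actin filaments. FOG2 is a cofactor that reaches chromatin largely through the GATA factors it binds.

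No member peak overlapped a promoter window, so the sequences shown are those of the annotated starts that came closest to a summit in each of the 3 genes with peaks. Each line gives the 250 bases before that start, from RefSeq on GRCm38.p6, the assembly also called mm10, read 5′ to 3′ on the gene's strand. The Mical2 window is chr7:112225586-112225835 on the plus strand, 2.93 kb from a summit. The Sorbs2 window, before the third of its starts, is chr8:45661743-45661992 on the plus strand, 3.81 kb from a summit. The Palld window, before its first start, is chr8:61902708-61902957 on the minus strand, 6.03 kb from a summit. Capitals mark E-boxes, CACGTG in Mical2 and CAGCTG in Palld, and the Sorbs2 window held none of the motifs searched.
Mical2 start 1: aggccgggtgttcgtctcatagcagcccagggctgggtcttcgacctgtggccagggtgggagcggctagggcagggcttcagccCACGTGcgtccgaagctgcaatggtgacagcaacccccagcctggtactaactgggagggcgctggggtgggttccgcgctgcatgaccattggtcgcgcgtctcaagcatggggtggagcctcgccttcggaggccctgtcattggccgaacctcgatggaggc
Sorbs2 start 3: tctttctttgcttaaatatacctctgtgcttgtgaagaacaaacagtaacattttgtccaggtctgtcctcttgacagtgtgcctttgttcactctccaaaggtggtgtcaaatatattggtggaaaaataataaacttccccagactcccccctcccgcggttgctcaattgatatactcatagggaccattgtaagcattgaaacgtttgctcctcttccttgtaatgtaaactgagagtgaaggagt
Palld start 1: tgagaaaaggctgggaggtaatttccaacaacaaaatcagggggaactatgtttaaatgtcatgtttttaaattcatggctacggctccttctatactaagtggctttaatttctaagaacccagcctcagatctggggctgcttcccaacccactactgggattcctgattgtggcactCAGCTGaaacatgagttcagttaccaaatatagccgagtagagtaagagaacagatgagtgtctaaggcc

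The promoter table held 9 such windows for the members, 1 at Mical2, 3 each at Sorbs2 and Palld and 2 at Flnc. The 2 Flnc starts lie 0.103 kb apart, so their windows overlap and the 9 are not all separate sequences. Both strands were searched for the GATA factor core GATAA and for longer sites that contain it, AGATAA in one form, in another TGATAA. The other motifs were AGGTGT for T-box factors, the E-box CACGTG, a second E-box with the letters CAGCTG, the CArG box of SRF and the MEF2 site. CAGCTG was found in 3 of the 9, against 12.2% of the windows of all protein-coding genes, and CACGTG in 1 of the 9, against 6.70%. GATAA was in 0 of the 9, while 20.5% of all windows held it, and AGGTGT, the CArG box and the MEF2 site were likewise in 0 of the 9, against 11.1%, 1.40% and 2.48%. These letters describe the windows alone, and the sequence under the peaks was not analysed here.

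Mical2 held the strongest binding of the group. Its body runs over chr7:112225825-112355194, 129.4 kb, and its 8 summits spanned 97.6 kb, 6 inside the body and 2 before it. The strongest peak, chr7:112258399-112258857, lay 32.9 kb into the gene and was 23.5-fold over control, a fold that 98.0% of all peaks fell below. It rested on 51 pulldown fragments (exact 95% Poisson interval 38.0 to 67.1), against a control level of 1.22. Fragments here are the pulldown reads stacked over the summit, recovered from the deposited fold and p, and the control level is what the input predicts there on the same scale. Such intervals cover counting error of the pulldown only. The control level is taken as exact, so the uncertainty that it adds to each fold was not measured.

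The next summit by fold at Mical2, chr7:112317471-112317889, lay 91.9 kb into the gene at 15.2-fold, with 41 fragments (29.4 to 55.6) against 1.76. The peak at chr7:112276827-112277104, 51.2 kb in, had 30 fragments (20.2 to 42.8) but was only 7.67-fold, because its control level of 3.04 was the highest at any member summit. Ranking by fragments and ranking by fold therefore differ for this site. Outside these 3, Mical2 summits rested on 8 to 15 fragments, and the intervals of 5 of the other 7 lay wholly below that of the strongest.

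The other 5 summits at Mical2 sat in tight groups. A trio 72.4, 73.5 and 74.2 kb into the gene was 7.37-, 7.25- and 4.02-fold, with 14, 13 and 8 fragments, and neighbours in it were 1.01 and 0.697 kb apart. A pair lay before the gene, 2.93 and 5.75 kb from its start, at 9.17-fold with 15 fragments (8.40 to 24.7) and at 5.32-fold with 8 (3.45 to 15.8). The farther of the pair was 3.145 kb from the start of Gm33247 and thus nearer to it than to Mical2's own start. The first 32.9 kb and the last 37.5 kb of the gene body held no summit.

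**Figure D1:**
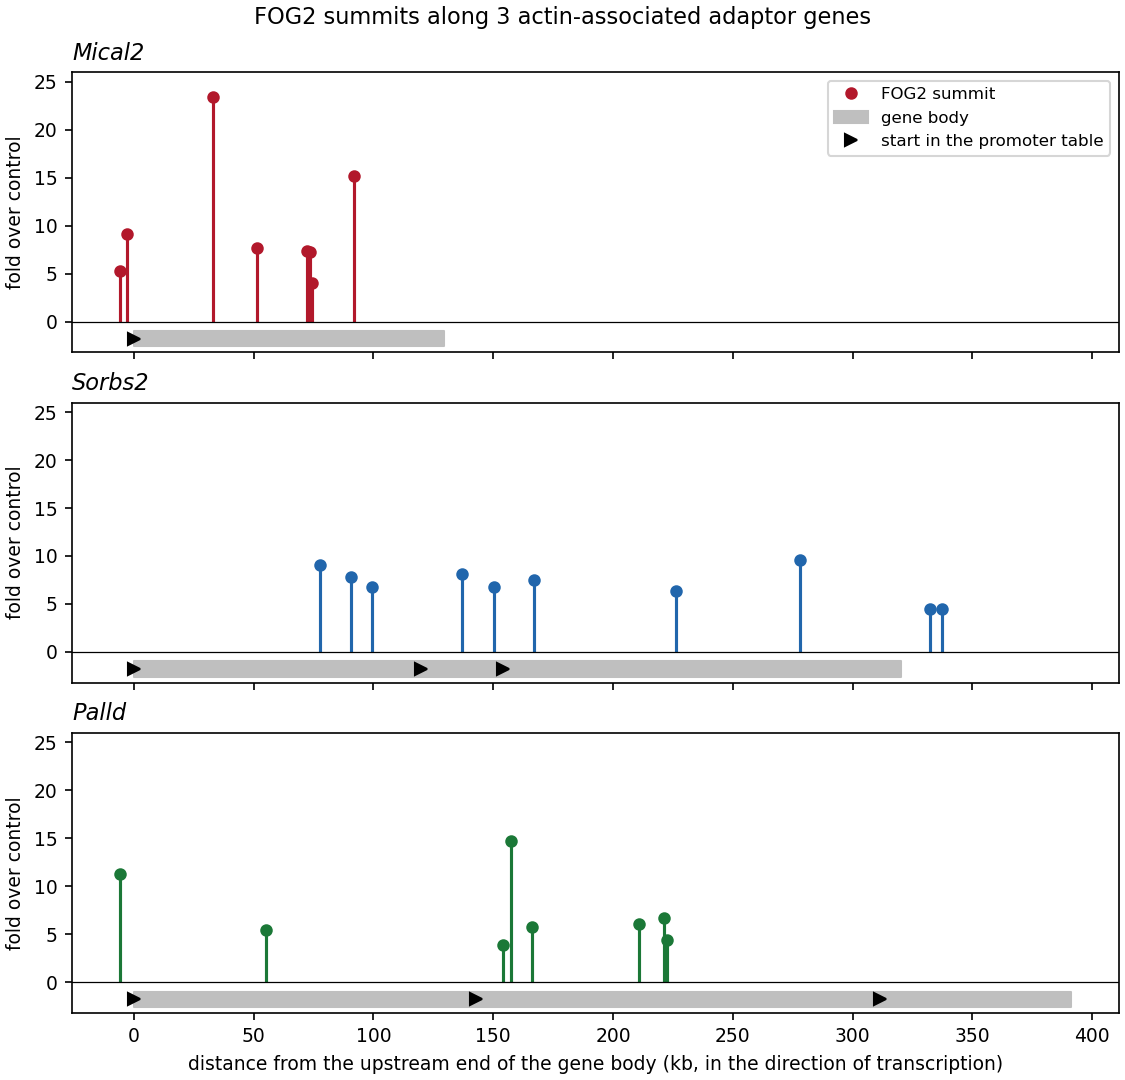
Fold over control (vertical axis) of each FOG2 summit against its distance in kb from the upstream end of the gene body, in the direction of transcription, for Mical2, Sorbs2 and Palld. Grey bars are gene bodies and arrowheads are starts in the promoter table; the highest summits are at Mical2 (23.5- and 15.2-fold) and Palld (14.7-fold), while the 10 at Sorbs2 stay under 10-fold and spread over 260 kb.

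Sorbs2 had the most summits of the group and the most even ones. Its body runs over chr8:45507788-45827906, 320.1 kb, and 8 of its 10 summits lay inside, the other 2 past its downstream end. Folds ranged from 4.42 to 9.63 with a median of 7.12, and fragments from 8 to 21. The highest fold was at chr8:45785641-45785991, 278.0 kb into the gene, with 9.63-fold and 17 fragments (9.90 to 27.2) against a control level of 0.869. The most fragments were at chr8:45598047-45598467, 90.5 kb in, with 21 (13.0 to 32.1) against 1.83, or 7.79-fold. The intervals of 0 of the other 9 summits lay wholly below this one, so the intervals do not set it apart. Differences between single Sorbs2 summits were not tested.

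The promoter table gave Sorbs2 3 starts, at 0, 120.0 and 154.2 kb of the gene body. Between the first and the second lay 3 summits, at 77.6, 90.5 and 99.5 kb, with 9.02-, 7.79- and 6.72-fold and 19, 21 and 18 fragments. Between the second and the third lay 2, at 136.8 and 150.4 kb, with 8.12- and 6.74-fold and 17 and 19 fragments. These 5 had 17 or more fragments each. The summit at 150.4 kb, chr8:45658090-45658271, was the only one of the 10 within 10 kb of a Sorbs2 start in the table, 3.81 kb before the third.

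Past the third start, Sorbs2 summits inside the gene lay at 167.2, 226.5 and 278.0 kb, with 14, 11 and 17 fragments and 7.49-, 6.39- and 9.63-fold. The weakest pair, 12.2 and 17.1 kb past the gene end, was 4.51- and 4.42-fold with 9 (4.12 to 17.1) and 8 (3.45 to 15.8) fragments. Their next nearest protein-coding gene was Pdlim3, which encodes a Z-disc PDZ and LIM protein, 45.4 and 40.5 kb away, and Pdlim3 itself had 0 summits. No summit lay in the first 77.6 kb of Sorbs2, nor did any lie in the 100 kb before it.

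Palld combined a pair of stronger summits with 6 weaker ones. It runs on the minus strand over chr8:61511431-61902707, 391.3 kb, and 7 of its 8 summits were inside. The highest fold was at chr8:61744941-61745430, 157.5 kb into the gene and 14.9 kb past its second start, with 14.7-fold and 29 fragments (19.4 to 41.6) against 1.03. The most fragments were before the gene, at chr8:61908575-61908922, 6.03 kb from the first start, with 31 (21.1 to 44.0) against 1.83, or 11.3-fold. Intervals of these 2 summits overlapped, and 4 of the other 7 lay wholly below that of the summit before the gene.

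The starts of Palld in the table lie at 0, 142.6 and 311.6 kb. A single summit, at 55.2 kb with 5.41-fold and 10 fragments, lay between the first and the second, while 6 lay between the second and the third, 154.1 to 222.4 kb into the gene. Beside the strongest, these were 3.89- to 6.70-fold with 9 to 22 fragments. Past the third start there were 0 summits in 79.7 kb, and the last 168.9 kb of the gene body held none. The site 221.3 kb in, chr8:61681279-61681555, had 22 fragments (13.8 to 33.3) but 6.70-fold, at a control level of 2.43, and its neighbour 1.09 kb away was 4.37-fold with 14 fragments at the same level.

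**Figure D2:**
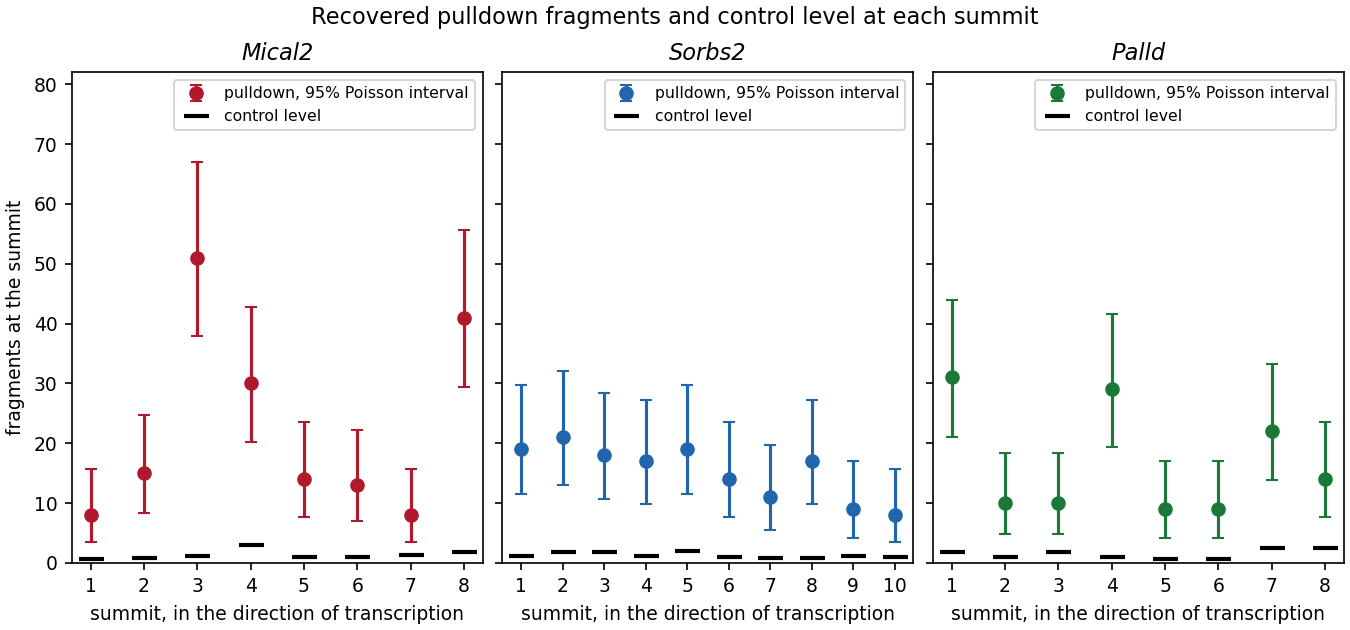
Pulldown fragments recovered at each summit (points, with exact 95% Poisson intervals) and the control level there (black dashes), numbered in the direction of transcription, for Mical2, Sorbs2 and Palld. Summits 3 and 8 of Mical2, with 51 and 41 fragments, stand highest; the Sorbs2 intervals all overlap that of its highest summit.

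Xirp1 and Flnc had no summit assigned. Xirp1 spans 9.84 kb at chr9:120013755-120023598, and the nearest summit, inside the sodium channel gene Scn10a, was 381.5 kb away at 14.0-fold with 30 fragments. Flnc spans 28.7 kb at chr6:29433153-29461889, and the nearest summit was 80.1 kb away inside Calu, at 5.89-fold with 10 fragments (4.80 to 18.4). A list of called peaks shows no signal under its threshold, so weaker binding at these genes was not measured. Among protein-coding genes with a territory within 1.5 times that of Xirp1 (37 kb), 5.77% had a summit, and for Flnc (35 kb) it was 5.36%. A gene's territory is all sequence, up to 100 kb from the gene, for which it is the nearest protein-coding gene.

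The distance limit of 100 kb decided none of these assignments. The farthest member summit was the one 17.1 kb past Sorbs2. The nearest summit given to another gene was 7.83 kb past the downstream end of Mical2, at 4.25-fold with 11 fragments, and went to Micalcl because that gene was 5.29 kb away. Position alone leaves the target of a site unknown.

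The members' folds were ordinary for the list. Fold was among the grounds on which the members were chosen, so these comparisons are a description. The median over the 26 summits was 6.997-fold, against 6.39-fold over all peaks, and the median number of fragments was 14.5 against 12. Median folds were 7.52 at Mical2, 7.12 at Sorbs2 and 5.93 at Palld. Of the 26, 4 (15.4%) reached 10-fold, 2 at Mical2 and 2 at Palld, against a background of 16.9% of all peaks. A −log10 q under 5 was found at 8 of the 26 (30.8%), 4 of them at Palld, against 33.6%. Peak widths had a median of 250.5 bp against 251 bp, and the widest, 490 bp, was the strongest at Palld. Control levels had a median of 1.22 at the members' summits and 0.828 over all peaks, with 3.04 at most against 24.3.

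**Figure D3:**
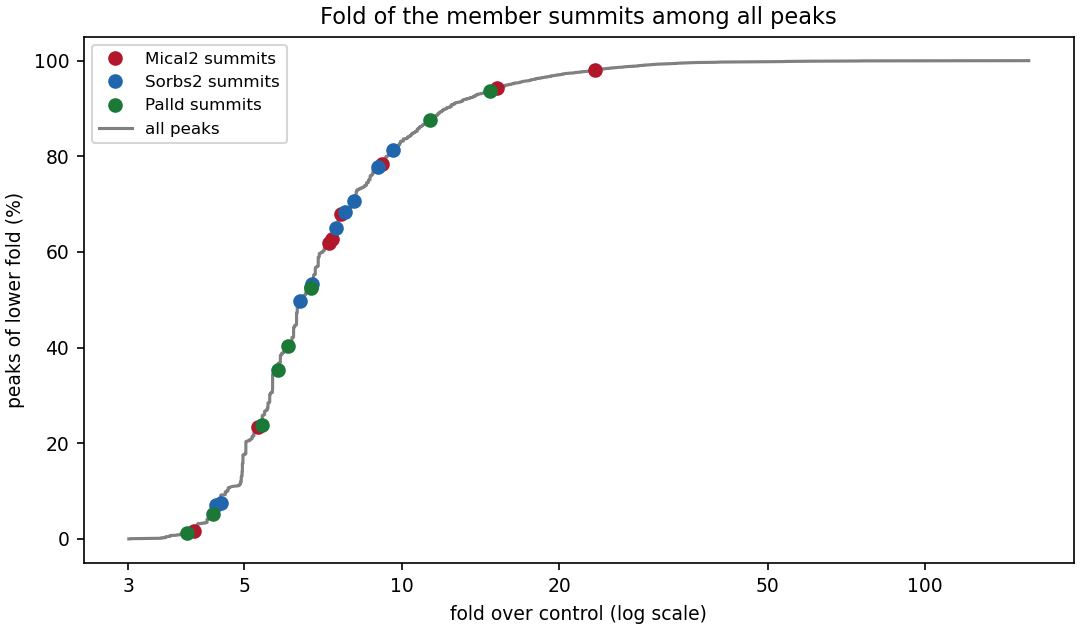
Each member summit's fold over control (horizontal axis, log scale) against the percentage of all 6166 peaks with a lower fold (vertical axis); the grey line is the whole list. The points run along most of the line, from 1.17% at the weakest Palld summit to 98.0% at the strongest Mical2 summit.

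What set the 3 genes apart was how many summits they had. That number, along with fold, is also what put them forward, so these counts are a description. Of the 5 members 3 had a summit, against 13.6% of 21631 protein-coding genes and 35.1% of the 5886 with a territory of at least 100 kb, as all 3 have. Each of the 3 had 8 or more summits, as did 0.106% of all genes (23 of 21631). At the mean density of summits over all territories, 2.52 per Mb, Mical2 would hold 0.426, Sorbs2 1.00 and Palld 1.03.

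Per 100 kb of territory, Mical2 had 4.73 summits, Sorbs2 2.51 and Palld 1.96. Among the 5886 genes of at least 100 kb these densities ranked 3, 33 and 71. Of 3827 other genes with a territory within 1.5 times that of Mical2 (169 kb), 29.5% had a summit and 1 had as many, namely Myocd, which encodes the SRF coactivator myocardin, with 8 and 17.3-fold at most. S1pr1 followed with 7 and Dyrk2 with 6. Of 924 such genes for Sorbs2 (398 kb), 59.2% had a summit and 1 had as many, the receptor tyrosine kinase gene Ror1, with 10 and 18.4-fold at most. For Palld (408 kb), the genes with as many were Ror1, Sorbs2 and Bach2, a transcription factor gene with 8, among 892.

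**Figure D4:**
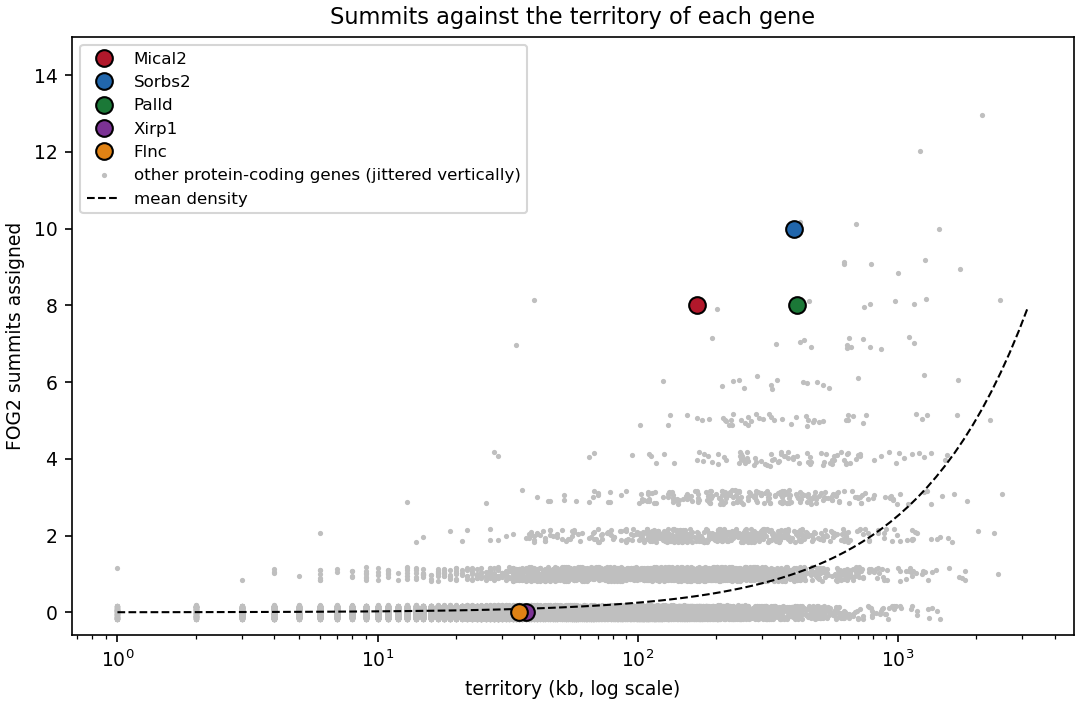
FOG2 summits assigned to each protein-coding gene against its territory in kb (log scale), with the 5 members as large points, other genes with a territory above 0 in grey and the mean density as a dashed line. Mical2 (8 summits in 169 kb), Sorbs2 (10 in 398 kb) and Palld (8 in 408 kb) lie above the line; Xirp1 and Flnc are at 0 with 37 and 35 kb.

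Member summits lay mostly deep inside the genes. Inside a protein-coding gene body were 21 of the 26 (80.8%), against 60.2% of all assigned summits, and the 3 genes are long. Only 4 of the 26 lay within 10 kb of one of the gene's own starts in the table, 2 at Mical2 and 1 each at Sorbs2 and Palld. Another summit lay within 10 kb of 14 of the 26 (53.8%), against 18.6% of all peaks, and genes with many summits must show this to some degree. All 26 come from 3 loci and are not independent of each other.

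Long noncoding RNA genes overlapped many of these sites. Of the 26 summits, 10 (38.5%) lay inside a lncRNA gene body, 7 at Sorbs2, 3 at Palld and 0 at Mical2, against 12.9% of all peaks. At Sorbs2 these were Gm16351 and Gm30635 with 2 summits each that also lie inside Sorbs2, Sorbs2os with 2 more, and Gm51530 past the gene end. The Gm51530 summit was 0.558 kb from the start of that RNA, the only one of the 26 within 1 kb of a start of any gene in the promoter table, against 3.89% of all peaks on chromosomes the table covers. Within 5 kb of such a start were 9 of the 26 (34.6%), against 12.4%. At Palld, the summit before the gene, at 11.3-fold, was 2.07 kb from the start of the lncRNA 4930512H18Rik and thus nearer to it than to Palld's own start.

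Among 40 related genes, 17 (42.5%) had a summit, and none of them had as many as Mical2, Sorbs2 or Palld. The share was 13.6% over all protein-coding genes and 35.1% over those with a territory of at least 100 kb, as some of the 40 have. The list was put together for this comparison with earlier results known. Of 12 paralogs of the members, 5 had a summit. The actin monooxygenase gene Mical3 had 2 (strongest 7.37-fold, 14 fragments, 7.65 to 23.5). Mical1, Sorbs3 and Micalcl had 1 each, at 4.51-, 4.46- and 4.25-fold. The palladin relatives Mypn and Myot, the Xin relative Xirp2 and the filamin gene Flna had 0.

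Of 28 partners that anchor actin, 12 had a summit. Tln2, which encodes a talin that links integrins to actin, had 6, the strongest at 17.98-fold with 30 fragments (20.2 to 42.8). Pdlim5, a Z-disc PDZ and LIM protein gene, had 2 (strongest 13.6-fold, 31 fragments, 34.5 kb outside), and Ablim1, an actin-binding LIM protein gene, had 4 (strongest 11.3-fold). Nebl, the gene of the Z-disc protein nebulette, had 3 (strongest 10.3-fold), and Actn2, that of the muscle alpha-actinin of Z-discs, had 3 (strongest 9.20-fold). Csrp3, which encodes the muscle LIM protein, and Ldb3, the gene of the Z-disc protein cypher, had 4 each, with 7.28- and 5.86-fold at most. Both have small territories (28 and 65 kb), so that their densities, 14.3 and 6.15 summits per 100 kb, were above the 4.73 of Mical2. Lpp and Tns1 had 3 each, Vcl, the vinculin gene, had 2, and Actn4 and Synpo2 had 1 each. The other 16 partners had 0. Over the 17 related genes with a summit the median strongest fold was 7.22, against 6.93 over all genes with a summit.

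**Figure D5:**
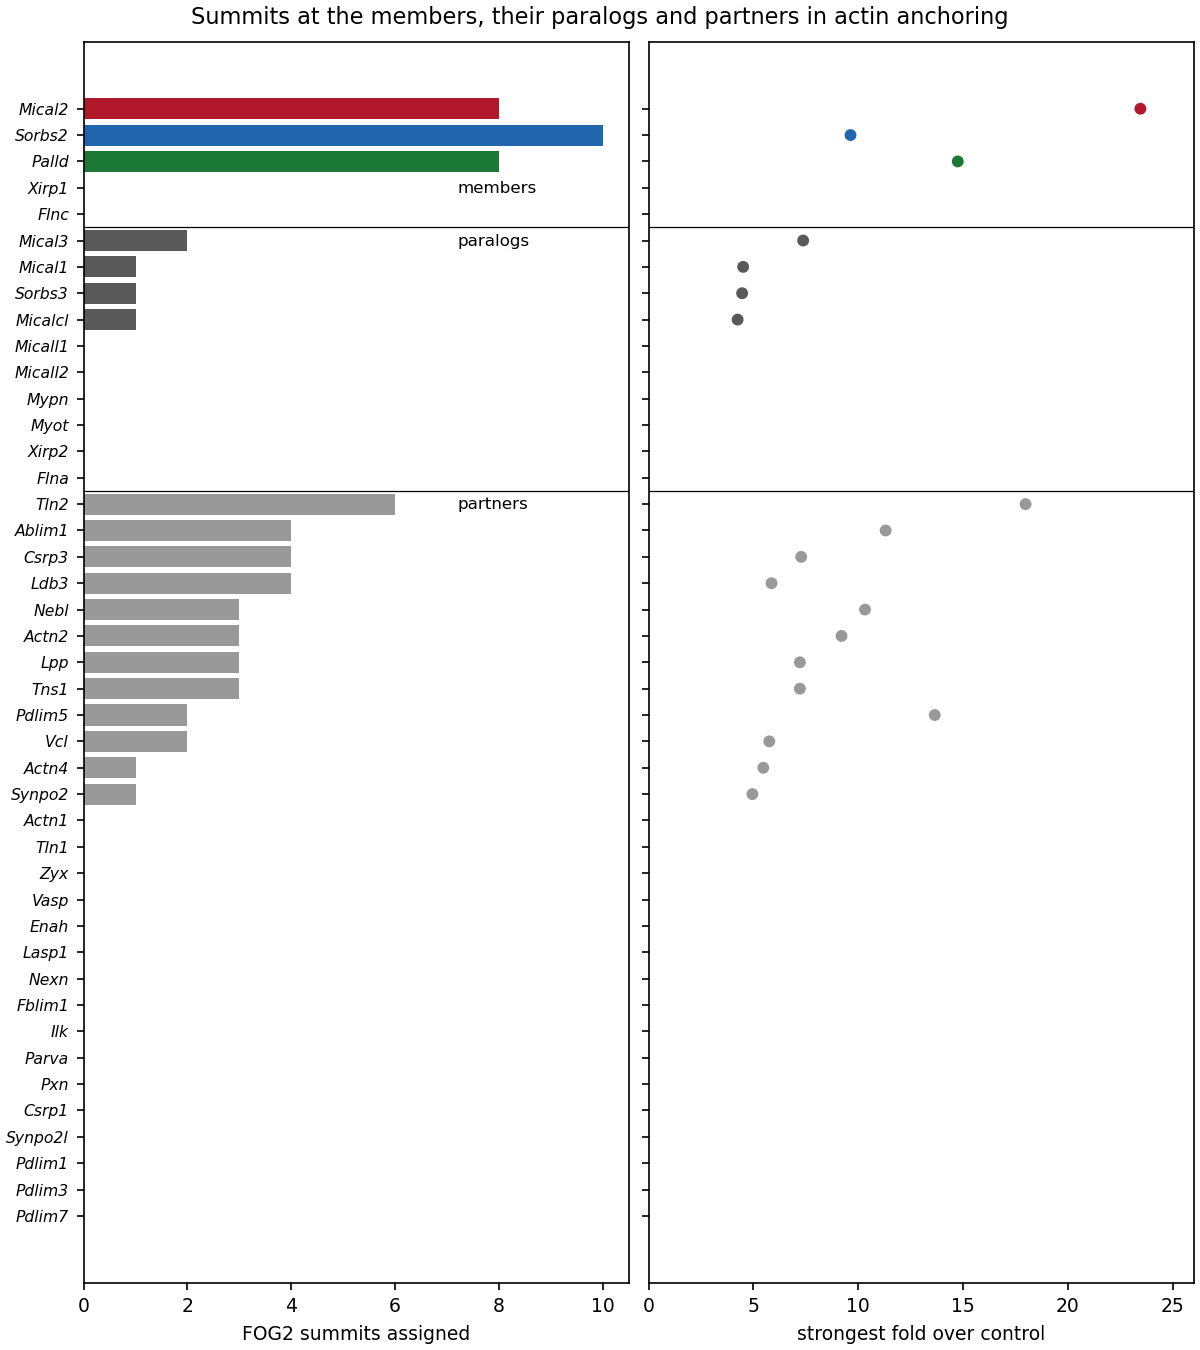
Number of FOG2 summits (left, bars) and strongest fold over control (right, points) at the 5 members, at those paralogs that are reported here and at 28 partners in actin anchoring, one gene per row. Mical2, Sorbs2 and Palld have 8 to 10 summits, and the highest count among the related genes is 6, at Tln2.

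RNA was not measured in these libraries, so the labelled tissue could not be checked against the expression of its markers. A summit was assigned to 5 of 5 cardiomyocyte markers and 3 of 4 ventricular ones, to 2 of 3 each for epicardium, endocardium with endothelium, and fibroblasts, and to 0 of 2 blood markers, against 13.6% of all protein-coding genes and 35.1% of those with a territory of at least 100 kb. Territories were 13 and 36 kb at the blood markers and 27 to 104 kb at the cardiomyocyte ones, so neither share is matched to them in size. For the blood markers, 0 of 2 therefore does not show that blood is absent. A ventricle holds all of these cell types, and the share of each cell type in a peak was not measured.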

How the data were processed

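Groups (2 FOG2 pulldown libraries, 1 input) follow the sample titles. The deposited file is a single peak list of the pooled pulldown, filtered against blacklisted regions per the file name. Per the submitters' processing notes, Bowtie2 2.3.2, SAMtools 1.5, Picard and MACS2 2.1.1 were used with mm10. Their settings: not given in the sources used here. Each fold is the authors' deposited ratio at the summit, pulldown over control. The deposited −log10 p and −log10 q are the caller's for the same base. The deposited display score repeats the −log10 q (times 10, without decimals) in all 6166 peaks, so it was left aside.

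Pulldown fragments and control levels were solved from fold and −log10 p, taking a Poisson tail and a fold with 1 added to both sides. A whole number matched within 0.001 in every peak, and no second number did so at a member summit. The median peak rested on 12 fragments, and library totals were not given. Genes and starts came from RefSeq tables of GRCm38.p6 without exons, so exonic and intronic summits were not separated. A summit in overlapping gene bodies counted for each, and territories were measured on a 1 kb grid. The table of starts is not complete, and Xirp1 has no entry in it. Recovery and assignment were tested on simulated data. For recovery these were made with the same formulas, so that test covers the code and not the caller's deposited values.

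The members, gene lists, motifs and settings were chosen with earlier results of these data known. Genes named were the members, genes next to their summits, related genes of highest fold, and up to 3 genes of similar territory with the most summits, except some not reported here. Related genes named with 0 or lower folds, 4930512H18Rik, the other lncRNAs and Gm33247 were chosen after their values were seen. Python 3.11.15, numpy 2.4.6, scipy 1.17.1, pandas 2.3.3 and matplotlib 3.10.9 were used. Stricter peak thresholds, other distances, other gene sets and merged summits were tried as alternatives.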

Additional observations from a re-analysis of the deposited data

How the results depend on the processing

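Each count and the median fold were recomputed under 10 alternatives, 1 of which, the nearest start site in the promoter table, was added after the data were seen. Members with a summit numbered 3 in all of them, and Xirp1 and Flnc kept 0 summits. Stricter thresholds, shorter distances and added noncoding genes can only take summits from a gene, so a count of 0 could not rise there. Xirp1 has no start in the promoter table, so its 0 was also fixed in that alternative. Sorbs2 had 7 to 10 summits and the median fold was 6.88 to 7.95. Counts moved by over 1.5 times in the following cases. With a −log10 q of at least 5, Palld had 4 summits. In the stronger 50% of peaks, the members together had 16, Palld had 3 and the related genes with a summit numbered 10. By nearest gene end, the members together had 17 and Palld 2, since its other 6 lie over 100 kb from any protein-coding gene end. By nearest start site of a protein-coding gene, Mical2 had 5. Of its summits 4 lie nearer to the start of Micalcl, and 1 inside Dkk3 was added. Starts of lncRNA genes were left out there, although several Sorbs2 and Palld summits lie nearer to one, such as those of Gm16351 and Gm51576. The farther Mical2 summit before the gene likewise lies nearer to the start of Gm33247 than to Mical2's own. No paired analysis was possible because the list is pooled over replicates, and for the same reason no replicate could be left out. Depth limits single sites, with 8 to 51 fragments per summit. The interval of the summit with the most fragments lay wholly above some others at Mical2 and Palld, and above 0 others at Sorbs2.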

Other observations

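The genes beside the members showed uneven binding. Next to Palld, a peak inside Ddx60 at chr8:61933282-61933544, 30.7 kb from Palld, was 12.9-fold with 24 fragments (15.4 to 35.7). Next to Mical2, Dkk3 had a summit of 7.02-fold with 14 fragments, 76.5 kb away. Outside its own 10 summits, Sorbs2 had few neighbours: the nearest were 521.4 kb away in Fat1, at 6.40-fold, and 595.8 kb away near Acsl1, at 6.96-fold. The region around Xirp1 held binding at a distance, in Scn10a (14.0-fold, 381.5 kb) and near Exog (15.7-fold, 543.9 kb). These genes were named after their values were seen.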
